A study of Mus musculus with 12 samples.

Results

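Sphere cells at passage 15 were compared with mouse embryonic stem cells, a comparison that covers 6 of the 12 bead arrays in the series, 3 in each group. The members were chosen by array title, and the comparison took in all 9343 genes that passed the detection filter described below. The sphere cells derive from primary embryo fibroblasts of strain FVB/N that carry neomycin resistance, and the labels call them converted sphere cells at passage 15, grown per the series title in medium with AlbuMAX I, a lipid-rich bovine albumin. The embryonic stem cells are the line J11 of strain 129/Sv, derived from the inner cell mass and taken by the study as its control (MES). Neither the medium of the MES cells nor the number of separate cultures behind the 3 arrays of a group is given in the labels, so p-values below measure the spread between these samples, which may be technical. The titles of the MES arrays read Pass_1, so passage as labelled also differs between the groups. Strain, origin, passage and culture all change with the group and cannot be told apart in any difference below.

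Embryonic stem cells keep an undifferentiated state through a network of transcription factors that includes Oct4 (Pou5f1), Sox2, Klf4 and Esrrb. Outside signals tune that network: LIF and BMP sustain it, autocrine FGF acting through ERK opens the way to differentiation, and Nodal and Activin signalling switches on its own secreted inhibitors, the Lefty proteins. The question the comparison addresses is how far the transcript levels of the spheres, after longer passage, match those of a reference pluripotent line.

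Values are log2 intensities after background correction and quantile normalization, and a difference is always passage 15 minus MES. Each MES and passage 15 array detected 15761 to 17234 probes, 33.8% to 36.95% of those analysed, and both groups lay on chip 1. Passage 15 replicate 3 detected the fewest probes, and MES replicate 1 stood apart from the other MES arrays in the genes described further below. Of 11 pluripotent-cell markers on the array, 10 were above background on all 3 arrays of both groups. Of 5 macrophage and blood markers, none was above background on all 3 arrays of any group. Of 10 fibroblast markers, 4 were above background on all 3 passage 15 arrays and 4 on all 3 MES arrays, with a summed level of 8.51 to 8.73 on the log2 scale at passage 15 and 9.80 to 10.11 in MES. In RNA from bulk cultures, fewer cells of a type and less RNA per cell cannot be told apart.

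A gene was called where limma gave a Benjamini-Hochberg adjusted p under 0.05 and the groups differed by 2-fold or more (1 log2 unit). Of 9343 genes, 645 were called (6.9%), 314 higher at passage 15 (3.36%) and 331 lower (3.54%). Counts in gene lists below stand beside these shares of all genes. In several lists the share called lay near 6.9%, such as 5.9% of cholesterol synthesis genes. Without the fold threshold 2611 genes passed (27.9%), and the 3 arrays of each group did not overlap in 4006 genes (42.9%). Differences over 4-fold were found in 30 of the genes called higher and 35 of those called lower, and differences over 8-fold in 4 and 7. The median difference of all genes was 0.015. With MES replicate 1 and passage 15 replicate 3 both left out, 494 genes were called, 444 of them also called with all arrays.

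**Figure D1:**
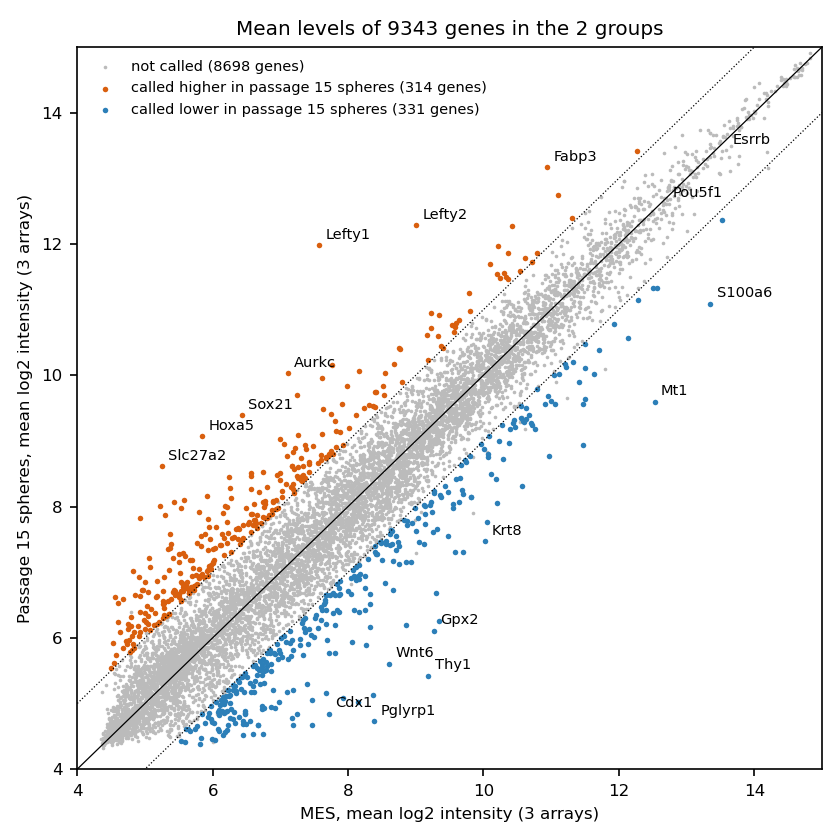
Mean log2 intensity of each of 9343 genes over 3 MES arrays (horizontal axis) and 3 passage 15 arrays (vertical axis). The solid line marks equal levels and the dotted lines a 2-fold difference, with 314 genes called higher in orange, 331 called lower in blue and the remaining 8698 in grey. Lefty1 and Slc27a2 lie farthest above the line among the labelled genes, and Thy1 and Pglyrp1 farthest below.

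The largest difference was that of Lefty1, a secreted inhibitor of Nodal signalling. Its MES arrays read 7.51, 7.63 and 7.59, and its passage 15 arrays 11.82, 12.04 and 12.08. The groups lay far apart with little spread within either, a difference of 4.40 (SE 0.21), or 21.2-fold, with adjusted p = 1.95e-07. Lefty2, its close homologue on the same chromosome 1, read 8.44, 9.48 and 9.09 in MES and 12.28, 12.22 and 12.37 at passage 15. Here the MES arrays were spread over about 1 unit, with replicate 1 lowest, and every passage 15 array lay above all of them (3.29, SE 0.28, adjusted p = 5.87e-06). Binding of either transcript to the probe of the other was not tested.

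Among the other large rises, Slc27a2, an enzyme and transporter that activates long-chain fatty acids, read 9.11, 9.02 and 7.74 at passage 15, with replicate 3 lowest, and 5.08, 5.32 and 5.34 in MES, where 2 of 3 arrays were above background (3.38, SE 0.30). Hoxa5, a homeobox gene of the Hoxa cluster, rose by 3.23 (SE 0.19, adjusted p = 1.04e-06), from 6.03, 5.81 and 5.69 to 8.85, 9.18 and 9.19. Sox21, a repressor related to Sox2, rose by 2.97 (SE 0.21). Aurkc, a kinase of meiotic and early embryonic divisions, rose from 7.46, 6.73 and 7.13 to 9.77, 10.12 and 10.22, a difference of 2.93 (SE 0.22). By the rule that chose these genes, the arrays of the groups did not overlap in any of them. AF067061, for which no MES array was above background, was at least 6.55-fold higher (adjusted p = 3.36e-06). The kinase gene Plk5 rose by 2.64, the early growth response gene Egr4 by 2.58, the neurofilament gene Nefh by 2.25 and the organic solute transporter Slc51a by 2.39. Aif1l, which encodes an actin-binding protein, rose by 2.78, and Gamt, which makes creatine, by 2.21. Ckb, the brain-type creatine kinase, was also higher (1.16, SE 0.11). Cldn11, a claudin of tight junctions, was at least 2.85-fold higher, with no MES array above background. Pigt, an enzyme of GPI anchor attachment, rose by 2.36 with the probe used, while its other probe gave 0.06. With chip 1 arrays alone it was at 0.07 and not called.

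**Figure D2:**
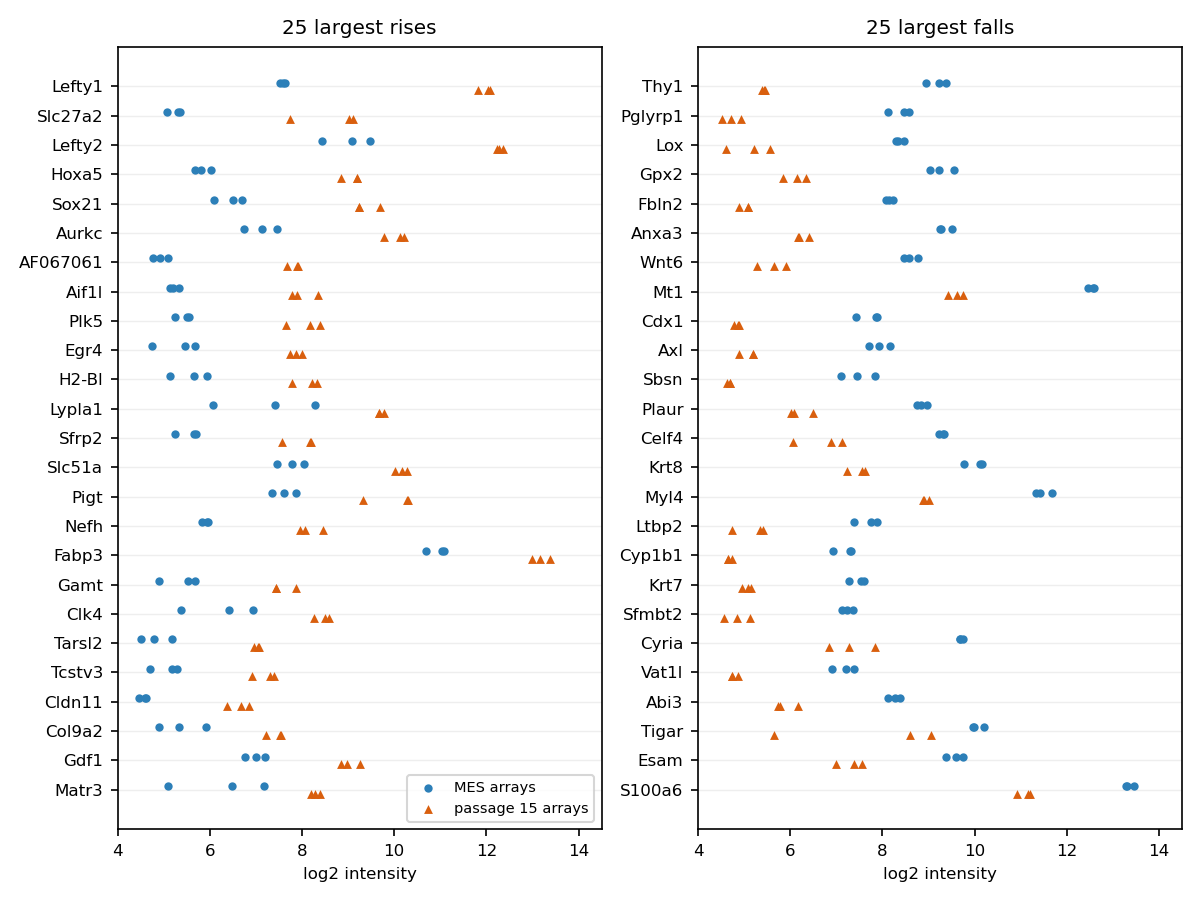
Log2 intensity of the 25 genes with the largest rises (left) and the 25 with the largest falls (right) among called genes, with 3 MES arrays as circles and 3 passage 15 arrays as triangles. By the rule that chose these genes the groups do not overlap in any of them, and the MES arrays are spread widest in Lypla1, Matr3 and Clk4.

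The largest fall was that of Thy1, a GPI-anchored surface protein of fibroblasts and other cells that mouse embryonic stem cells can also carry. It read 9.38, 8.95 and 9.23 in MES and 5.39, 5.43 and 5.45 at passage 15, 13.6-fold lower (difference -3.76, SE 0.61, adjusted p = 0.000758). Pglyrp1, a secreted protein that binds bacterial cell walls, was above background on no passage 15 array and at least 9.36-fold lower (adjusted p = 3.36e-06). Gpx2, a glutathione peroxidase of epithelia, fell (-3.17, SE 0.41), and Plaur, the GPI-anchored receptor of urokinase, (-2.65, SE 0.22). Plaur read 8.74, 8.83 and 8.97 in MES and 6.50, 6.02 and 6.07 at passage 15. Myl4, an embryonic myosin light chain, fell (-2.54, SE 0.16), Celf4, an RNA-binding protein, (-2.61, or -0.23 and -1.29 with its other probes) and the adhesion protein Esam (-2.26). Tigar, a p53-induced phosphatase, was 9.05, 8.60 and 5.64 at passage 15 against 9.99, 10.21 and 9.96 in MES. Its difference of -2.29 was -2.94 to -1.23 when 1 array was left out at a time, smallest without passage 15 replicate 3, and its other probe gave -0.19. Sbsn, a gene of stratified epithelium, was at least 4.95-fold lower, the cytochrome Cyp1b1 at least 4.07-fold and Vat1l at least 4.04-fold, with no passage 15 array above background in these 3 genes. Sfmbt2, a Polycomb-related gene that is imprinted in the mouse, fell (-2.40) with the probe used and was -0.08 with its other probe.

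Most transcripts of the pluripotency network differed by less than 2-fold between the groups. Pou5f1 read 12.63, 12.67 and 12.78 in MES and 12.48, 12.56 and 12.80 at passage 15, and its groups overlapped (difference -0.08, SE 0.21, adjusted p = 0.825). Esrrb, a nuclear receptor of the naive state, differed by -0.15 (SE 0.16, adjusted p = 0.522). Sox2 read 8.13, 8.78 and 8.41 in MES and 9.15, 9.19 and 9.27 at passage 15. Every passage 15 array lay above all MES arrays, and the difference of 0.76 (SE 0.20) passed the adjusted p (0.0129) but not 2-fold. The same held for Zfp42, or Rex1, a marker of the naive state, which differed by 0.82 (SE 0.21, adjusted p = 0.0113). Myc differed by -0.25 (SE 0.20, adjusted p = 0.398), with overlapping arrays.

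Of 26 measured pluripotency genes, 2 were called higher and 1 lower (11.5% of the list), and the median difference was -0.01. Klf4, a reprogramming factor that acts downstream of LIF, was higher by 1.01 (SE 0.19), with arrays of 9.24, 9.55 and 9.44 in MES and 10.15, 10.32 and 10.78 at passage 15, but its other probes gave 0.19 and 0.22 and the mean over probes was short of 2-fold (0.47). Rif1, a telomere and replication timing factor, was higher by 1.02, and Nr5a2, a nuclear receptor that can activate Pou5f1, was lower (-1.02). All 3 lay close to the fold threshold, and with MES replicate 1 and passage 15 replicate 3 both left out no gene of the list was called. Without MES replicate 1, Klf4 was at 0.93, Rif1 at 0.60 and Nr5a2 at -0.75, none of them called. Rif1 missed 2-fold with chip 1 arrays alone (0.96) and was not called with median scaling (0.95). Klf4 was also not called without passage 15 replicate 3 (0.83), Rif1 without passage 15 replicate 1 (0.95) or 3 (1.00), and Nr5a2 without passage 15 replicate 2 (-0.96). At the adjusted p alone, 7 genes of the list passed upward and 2 downward. Of 17 LIF and STAT3 response genes, Klf4 was the gene called (5.9%, against 6.9% of all genes). Nanog was not analysed here.

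Nodal pathway genes other than the Leftys showed no called difference. Of 12 measured genes, 2 were called, both higher, and they were Lefty1 and Lefty2. The ligand gene Nodal, named here after its value was seen, differed by -0.21 (SE 0.20, adjusted p = 0.467), and the co-receptor gene Tdgf1, named likewise, by 0.41 (adjusted p = 0.242). The list median was 0.04. Gdf1, a ligand of the same receptors that lies outside the list, rose by 2.04 (SE 0.17), from 7.19, 6.77 and 7.01 to 8.84, 8.98 and 9.26.

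In the FGF and ERK list, 4 genes that ERK signalling induces were lower and 2 ligand genes were higher, out of 19 measured. Etv4, an ETS factor, read 12.25, 11.92 and 12.22 in MES and 10.60, 10.54 and 10.57 at passage 15, with 3 nearly equal values in the spheres (-1.55, SE 0.13, adjusted p = 6.71e-06). Phlda1 was lower (-1.90, SE 0.15) and the immediate early gene Egr1 (-1.51, SE 0.23). Spred1, an inhibitor of the pathway, was lower (-1.16), but its other probe gave 0.09 and it missed 2-fold without passage 15 replicate 3 (-0.70). Not every ERK-induced gene differed: Etv5 was at 0.02 (adjusted p = 0.968) and Dusp6, an ERK phosphatase, at -0.68 (adjusted p = 0.00243), both named after their values were seen. Fgf15 rose by 1.46 (SE 0.26), with 1 of 3 MES arrays above background. Fgf4, the autocrine FGF of embryonic stem cells, read 5.34, 7.43 and 7.06 in MES and 7.87, 7.62 and 7.92 at passage 15. MES replicate 1 was far below the other 2 MES arrays, and without it the difference of 1.19 dropped to 0.55 and was not called. It was also not called with any 1 passage 15 array left out (1.13 to 1.28).

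Called genes of the BMP response and of the primitive streak were all lower at passage 15, while those of the Wnt list went both ways. Cdx1, a caudal homeobox gene that Wnt signalling induces, read 7.87, 7.42 and 7.87 in MES and was above background on no passage 15 array, at least 5.91-fold lower (adjusted p = 2.33e-07). Evx1, a homeobox gene of the posterior streak, was likewise undetected at passage 15 and at least 2.85-fold lower (adjusted p = 5.58e-06). Bmp4, which encodes the ligand, was lower (-1.14, SE 0.16) and Id1, a direct target of BMP signalling, (-1.49, SE 0.23). Id1 read 10.73, 10.68 and 10.76 in MES and 9.18, 9.10 and 9.44 at passage 15, without overlap. Another Id gene, Id3, differed by -0.07 (adjusted p = 0.865), a value named after it was seen. Of 13 measured streak and early mesoderm genes, 4 were lower and none higher, with a median of -0.55, against 3.54% of all genes called lower. Of 15 BMP response genes, 3 were lower and none higher, with a median of -0.03. Cdx1 stands in both of these lists, so their counts share at least that gene. The fourth streak gene, Mest, is imprinted and was lower (-1.10).

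In the Wnt list, 3 of 16 measured genes were lower and 2 higher, and genes counted here can also stand in the lists above. Wnt6, a ligand, fell (-3.00, SE 0.22, adjusted p = 2.48e-06), from 8.77, 8.48 and 8.57 to 5.90, 5.65 and 5.27, and its other probe gave -2.87. Axin2, a feedback inhibitor induced by the pathway, was at least 1.52-fold lower, with no passage 15 array above background, and missed 2-fold with median scaling or with chip 1 arrays alone (-0.80 in both), or without MES replicate 3 (-0.91). The 2 genes that rose both encode extracellular inhibitors of Wnt proteins. Sfrp2, which binds the ligands, rose by 2.44 (SE 0.20), and Notum, an enzyme that removes their lipid, by 2.01 (SE 0.18), from 5.49, 5.22 and 5.39 to 7.34, 7.26 and 7.52.

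**Figure D3:**
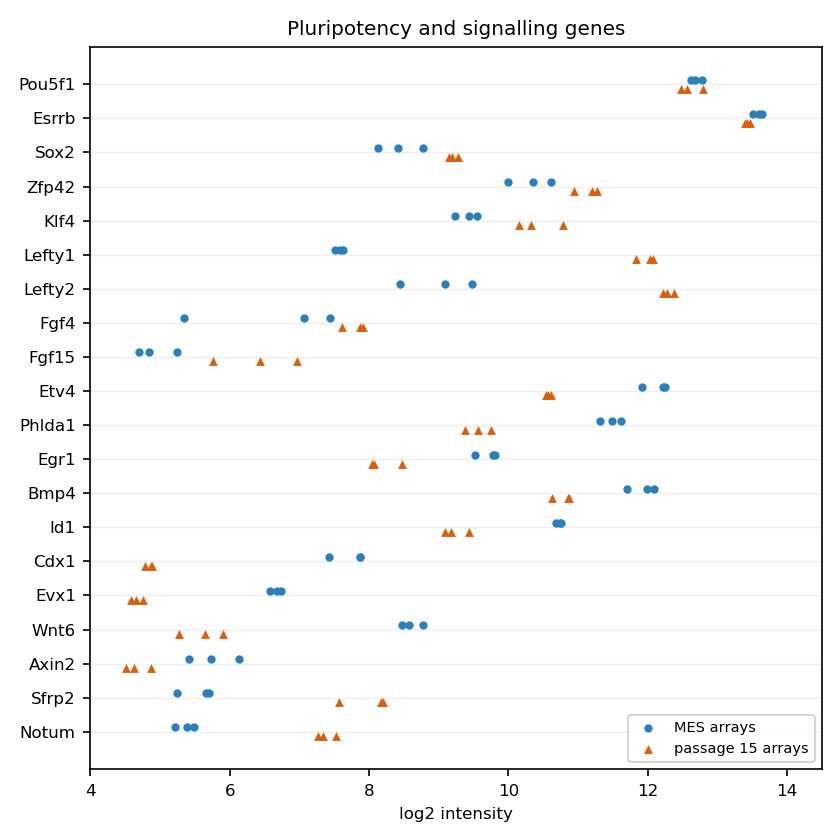
Log2 intensity of 20 pluripotency and signalling genes, with 3 MES arrays as circles and 3 passage 15 arrays as triangles. The arrays of the groups overlap in Pou5f1, MES replicate 1 is the low circle of Fgf4, and Cdx1 and Evx1 lie at background level at passage 15.

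Of 5 measured metallothionein and zinc export genes, 4 were called lower at passage 15 and none higher. Metallothioneins are small proteins that bind zinc, copper and cadmium, and zinc induces them through the transcription factor MTF1, which binds metal response elements in their promoters. Mt1 read 12.58, 12.45 and 12.56 in MES and 9.63, 9.43 and 9.74 at passage 15, 7.63-fold lower (difference -2.93, SE 0.25, adjusted p = 7.04e-06). Mt2 read 8.25, 8.21 and 8.30 and 6.56, 6.01 and 6.70 in the same order (difference -1.83, SE 0.36, adjusted p = 0.00239). In both genes the 3 MES arrays were nearly equal and every passage 15 array lay below them. Mt3, a brain-enriched member, was above background on no passage 15 array and at least 2.46-fold lower (adjusted p = 2.97e-05). Mt4, named after its value was seen and also above background on no passage 15 array, was at least 1.15-fold lower (adjusted p = 0.0162) and not called. Slc30a1, a zinc exporter induced by the same factor, was lower (-1.07, SE 0.17), or -0.23 with its other probe, and missed 2-fold without MES or passage 15 replicate 2 (-0.96 each). All 5 measured members of this list passed the adjusted p downward, 4 of them past 2-fold, and the list median was -1.76, or -1.30 with Mt3 and Mt4 at their bounds. Mt1 to Mt4 lie on chromosome 8.

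The 300-base windows from 250 bases before to 50 after the start of Mt1, Mt2 and Slc30a1 in RefSeq (build GRCm38.p6, all on the plus strand) are shown because these genes fell together and share a known regulator. Capitals mark matches to the 7-base core of the metal response element, TGCGCNC or TGCACNC, on either strand. The 2 motifs differ in the fourth base, so no stretch of 1 strand matches both, while matches on opposite strands can overlap.
Mt1, chr8:94178839-94179138: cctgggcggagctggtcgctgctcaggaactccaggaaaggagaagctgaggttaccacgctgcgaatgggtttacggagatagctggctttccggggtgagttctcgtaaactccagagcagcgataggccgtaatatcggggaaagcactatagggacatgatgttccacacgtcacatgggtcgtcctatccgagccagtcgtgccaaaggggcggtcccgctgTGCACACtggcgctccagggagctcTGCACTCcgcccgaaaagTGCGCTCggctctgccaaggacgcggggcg
Mt2, chr8:94172368-94172667: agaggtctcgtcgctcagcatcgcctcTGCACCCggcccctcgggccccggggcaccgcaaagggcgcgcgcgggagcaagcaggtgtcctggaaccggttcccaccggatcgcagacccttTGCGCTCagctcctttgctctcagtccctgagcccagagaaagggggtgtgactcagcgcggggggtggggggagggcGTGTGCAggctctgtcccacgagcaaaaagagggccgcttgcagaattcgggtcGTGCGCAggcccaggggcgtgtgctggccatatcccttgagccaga
Slc30a1, chr1:191906531-191906830: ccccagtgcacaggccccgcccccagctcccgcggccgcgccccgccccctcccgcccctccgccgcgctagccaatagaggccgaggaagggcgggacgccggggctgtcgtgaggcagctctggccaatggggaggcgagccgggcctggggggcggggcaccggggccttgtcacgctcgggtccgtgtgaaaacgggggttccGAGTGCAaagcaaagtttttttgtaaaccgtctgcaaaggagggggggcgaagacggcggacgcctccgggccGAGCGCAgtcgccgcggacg
The Mt1 window holds 3 matches, that of Mt2 4 and that of Slc30a1 2. The windows of Mt3 and Mt4 hold 1 each. Of all 32851 promoter windows in the table, 25.7% hold at least 1 match, 7.11% at least 2 and 1.97% at least 3. A match describes the letters in the window and does not show a bound site.

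Among glutathione, peroxidase and NRF2 target genes, 3 of 26 measured were lower and none higher, with a median of -0.16. They were Gpx2, named above, Gsta3 at -1.59 (SE 0.42) and Gstm2 at -1.29 (SE 0.15), both glutathione transferases. The 3 probes of Gstm2 ranged from -1.62 to -0.14.

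The list of fibroblast matrix and surface genes held 27 measured members, of which the spheres had 6 lower and 1 higher (25.9% called), with a median of -0.17, or -0.14 with bounds. Besides Thy1 the lower genes included Lox, the enzyme that cross-links collagen, which read 8.33, 8.29 and 8.47 in MES and 5.21, 4.61 and 5.56 at passage 15 (-3.24, SE 0.69), and Fbln2, a fibulin, which read 8.22, 8.15 and 8.08 and 5.08, 4.89 and 5.09 (-3.13, SE 0.54). Axl, a receptor kinase, was lower (-2.84, SE 0.65). Of the passage 15 arrays, 2 were above background for Lox and 1 each for Fbln2 and Axl. Col1a1, a chain of fibrillar collagen, was above background on no passage 15 array and at least 2.36-fold lower (adjusted p = 0.0132). It was not called without MES replicate 1, nor were Timp1 (-1.25 without that array, -1.24 without passage 15 replicate 2) and, without MES replicate 2, Tgfbi (0.91). Tgfbi also missed 2-fold with chip 1 arrays alone (0.99), median scaling (0.98) or the mean over probes (0.95), and with median scaling Col1a1 was at -1.19 and not called. Timp1, an inhibitor of matrix proteases, was lower (-1.31), and Tgfbi, a secreted matrix protein, was higher by 1.04. Vim, which encodes vimentin, was at -0.52 (SE 0.24, adjusted p = 0.119). Cd44, the hyaluronan receptor, was above background on no array of either group with the probe used. With MES replicate 1 and passage 15 replicate 3 both left out, 3 genes of the list were called lower and 1 higher.

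The spread in the model comes from all 12 arrays, and several of these genes varied widely among the arrays of the other groups. Their standard errors are therefore larger than the spread within MES and passage 15 alone. Ltbp2, which binds latent TGF-beta and lies outside the list, fell (-2.51, SE 0.69, adjusted p = 0.0164), but was not called without MES replicate 1 (-2.41) or passage 15 replicate 1 (-2.30), or with median scaling (-2.18). Among 13 contractile genes and TGF-beta targets, Ccn2, a matricellular protein induced by TGF-beta and YAP, was lower (-1.70, SE 0.30) and Tgfbi higher. Of 9 mesenchymal transcription factors, Meox1, a homeobox gene of somites, was higher by 1.85 (SE 0.23) and none was lower.

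Of 20 measured genes in the list of epithelial junctions, keratins and claudins, 6 were lower in the spheres and none higher. The list median was -0.37, and 3.54% of all genes were called lower. The claudin gene Cldn11, given above, lies outside the list and was at least 2.85-fold higher. Krt8, a keratin of simple epithelia and of differentiating embryonic cells, read 10.17, 9.78 and 10.13 in MES and 7.57, 7.22 and 7.62 at passage 15 (-2.55, SE 0.20, adjusted p = 3.36e-06). Its filament partner Krt18 read 7.82, 7.66 and 7.58 and 5.79, 6.08 and 6.04 (-1.72, SE 0.15, adjusted p = 6.09e-06). The arrays did not overlap in either gene. Krt7 was lower (-2.41, SE 0.28), and Krt19 was at least 1.57-fold lower, with no passage 15 array above background. Cldn4, a claudin, was lower (-1.65) and Grhl2, a transcription factor of epithelial genes, (-1.41). Cdh1, which encodes E-cadherin, was at -0.39 (adjusted p = 0.153), a value named after it was seen. Of 10 trophoblast genes, Krt7 and Tead4, a transcription factor of trophectoderm that also acts in other tissues, were lower (Tead4 -1.70, SE 0.14), and Igfbp3 was higher.

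Of 28 measured integrin, cadherin and annexin genes, a list that also holds calcium-binding S100 partners of the annexins, 6 were lower and 1 was higher, and the median was -0.43. Anxa3 was lower (-3.09, SE 0.45), from 9.24, 9.51 and 9.27 to 6.16, 6.20 and 6.40. Anxa2, a membrane-binding protein, read 11.50, 11.34 and 11.64 in MES and 8.88, 9.68 and 10.36 at passage 15. The spheres were spread over more than 1 unit with replicate 3 highest, and still lay below every MES array (-1.85, SE 0.29). S100a6 was lower (-2.26, SE 0.65), Itga3, an integrin that binds laminin, (-1.76, SE 0.18), Itga5, the fibronectin receptor chain, (-1.07, named after its value was seen), and Capg, an actin-capping protein, (-1.56). S100a6 was not called without MES replicate 1 (-2.21) or passage 15 replicate 2 (-2.18). S100a13 was higher by 1.75 (SE 0.18). Of 21 basement membrane genes none was called. The largest shifts there were those of Agrn, the proteoglycan agrin, at -0.89 (adjusted p = 0.000706) and Sparc at -0.73 (adjusted p = 0.0222).

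**Figure D4:**
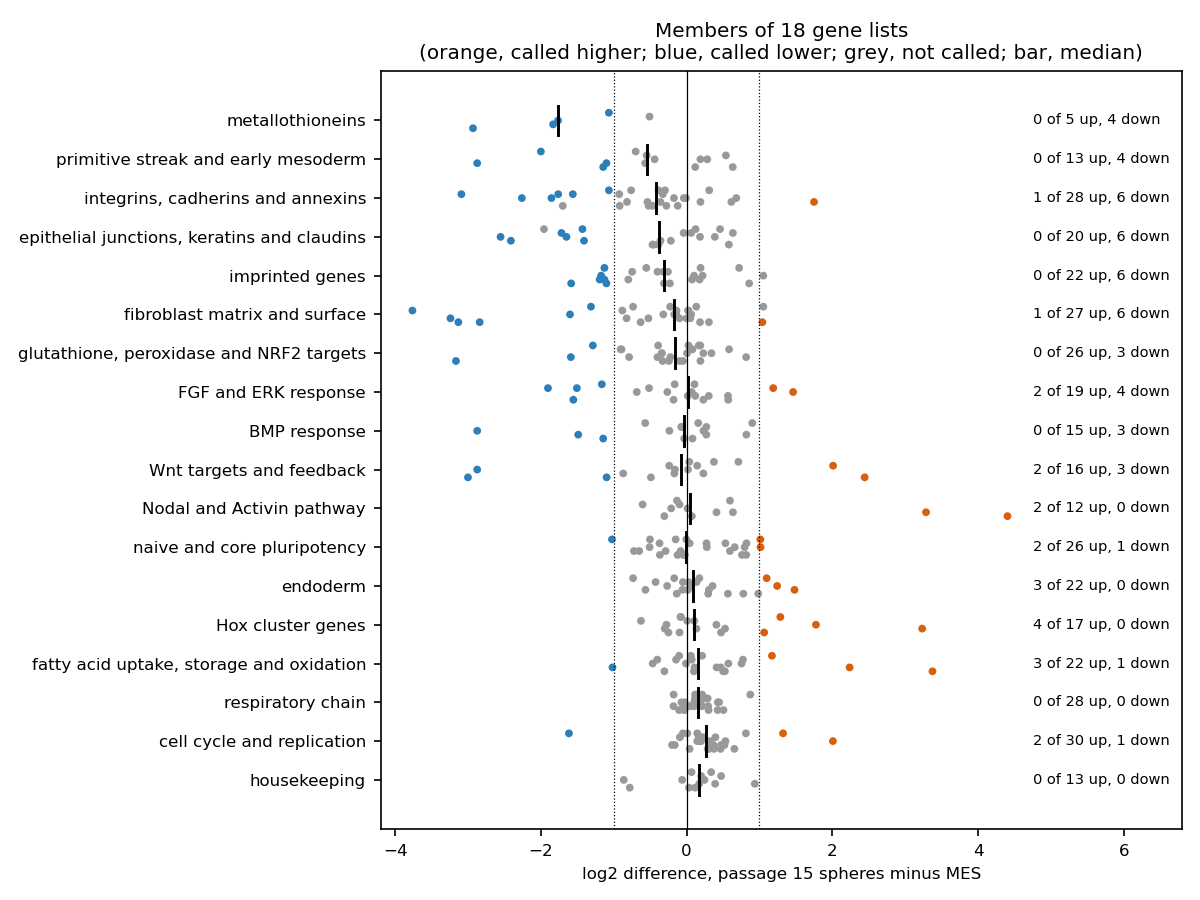
Log2 difference, passage 15 minus MES, of each measured member of 18 gene lists. Orange points were called higher, blue points called lower and grey points not called, black bars mark list medians and dotted lines a 2-fold difference. The metallothionein median lies farthest left of those shown, at -1.76, and the 28 respiratory chain genes all lie within 2-fold.

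Genes of lipid handling, read because the medium named in the series title holds a lipid-rich albumin, differed in few members. Of 22 genes of fatty acid uptake, storage and oxidation, 3 were higher and 1 was lower. Fabp3, a cytoplasmic fatty acid-binding protein, read 11.08, 10.70 and 11.03 in MES and 12.99, 13.16 and 13.38 at passage 15 (2.24, SE 0.16, adjusted p = 2.42e-06), without overlap. Slc27a2 is described above, and Lpl, lipoprotein lipase, was higher by 1.17 (SE 0.14). Plin2, the coat protein of lipid droplets, was lower (-1.02), and missed 2-fold without MES replicate 3 or passage 15 replicate 1 or 2 (-0.99 to -0.88). Of 14 fatty acid synthesis genes, Thrsp, a regulator of lipid synthesis, was at least 2.13-fold higher, with no MES array above background, and malic enzyme Me1 was lower (-1.03), though -0.99 without MES replicate 1 and -0.93 without passage 15 replicate 1. Of 17 cholesterol synthesis genes, Insig1, a brake on the pathway, was higher by 1.43 (SE 0.27). It read 6.59, 7.87 and 7.43 in MES. With MES replicate 1 and passage 15 replicate 3 both left out it missed 2-fold (0.99). Of 28 respiratory chain genes none was called, with the largest values those of Cox7a1 at 0.88 and Uqcrb at 0.51. Egln3, an oxygen-sensing hydroxylase, was the gene called among 27 of glycolysis and hypoxia (3.7%, against 6.9% of all genes), at -1.04. Its arrays overlapped, and of the 6 arrays only the removal of passage 15 replicate 3 kept the call (-1.14 to -0.52 without any of the others).

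Imprinted genes were lower in 6 of 22 measured and higher in none (27.3% called, against 6.9% of all genes), with a median of -0.32. Phlda2 was lower (-1.58, SE 0.28), the cyclin-dependent kinase inhibitor Cdkn1c (-1.13, SE 0.21), the transporter Slc22a18 (-1.17) and the fetal growth factor Igf2 (-1.19, SE 0.24). These 4 genes lie on chromosome 7. Igf2 read 7.74, 7.46 and 7.63 in MES and 6.34, 6.10 and 6.82 at passage 15, without overlap. Peg3, a zinc finger gene also on chromosome 7, was lower (-1.13), though its other probe gave -0.10, and Mest is given above. Without MES replicate 1, Peg3 was at -0.90 and not called, and it was not called without passage 15 replicate 1 (-0.99) or 3. Slc22a18 and Peg3 missed 2-fold when the 6 arrays were normalized and fitted alone (-0.85 each). Among 15 genes of IGF signalling, the binding proteins Igfbp2 (1.66), Igfbp4 (1.30) and Igfbp3 were higher, Igfbp3 by at least 1.54-fold, with no MES array above background. Igfbp2 read 8.62, 8.71 and 8.94 in MES and 10.14, 10.40 and 10.69 at passage 15, whereas the arrays of the other 2 genes overlapped between the groups. Igfbp3 was not called with any 1 MES array left out, nor without passage 15 replicate 1 (1.00) or 2 (0.76). Igfbp4 was not called without MES replicate 1 (1.09) or 2 (1.20) or passage 15 replicate 3 (0.82).

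Hox genes were higher in 4 of 17 measured and lower in none (23.5% called, against 6.9% of all genes). After Hoxa5, the genes called were Hoxa7 at 1.78 (SE 0.20), Hoxb13 at 1.29 and Hoxa4, which was at least 1.41-fold higher with no MES array above background. Hoxa4, Hoxa5 and Hoxa7 belong to the Hoxa cluster on chromosome 6. The median of the list was 0.11, so most members differed little. Hoxb13 and Hoxa4 missed 2-fold when the 6 arrays were fitted alone (0.98 and 0.78) and with median scaling (0.96 and 0.79).

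Germline and early embryonic genes differed in both directions. Of 20 measured germline genes, Kit, the receptor of stem cell factor, was higher by 1.58 (SE 0.22) and Stra8, a gene of meiotic entry induced by retinoic acid, by 1.50 (SE 0.26). Smc1b, a meiotic cohesin, was lower (-1.07), though -0.90 without MES replicate 1 and -0.94 without passage 15 replicate 2. Stra8 read 7.91, 7.15 and 7.06 in MES and 8.58, 8.84 and 9.20 at passage 15. Among 5 measured genes of the 2-cell stage, Tcstv3, which sits in a gene cluster active in that stage, read 5.18, 4.70 and 5.29 in MES and 6.92, 7.40 and 7.31 at passage 15 (2.15, SE 0.23), and 2 of 3 MES arrays were above background. AF067061 also lies on chromosome 13. Arg2, an arginase, was at least 1.34-fold higher and missed 2-fold without passage 15 replicate 3 (0.85), with chip 1 arrays alone (0.77) or with median scaling (0.77).

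Of 22 measured endoderm genes, 3 were higher and none lower (13.6% called, against 6.9% of all genes), with a median of 0.09. Dab2, an adaptor protein of primitive endoderm, read 6.35, 6.61 and 6.52 in MES and 7.82, 7.86 and 8.25 at passage 15 (1.48, SE 0.22). The forkhead gene Foxa1 was at least 1.95-fold higher, with no MES array above background, but missed 2-fold with chip 1 arrays alone or median scaling (0.89 in both). Foxq1 was higher by 1.10 (SE 0.16). The endoderm factor Gata6 was at -0.56 (adjusted p = 0.0124), and Sox17, another, was above background on no array of either group, both named after their values were seen. Of 14 epiblast genes, the Leftys and Fgf15 were higher, and Sox4 (-1.37), Pou3f1 (-1.13) and Sox11 (-1.02), transcription factors of epiblast and neural cells, were lower. The other probe of Sox4 gave -0.05. With chip 1 arrays alone Pou3f1 was at -0.97 and Sox11 at -0.73, and with median scaling they were at -0.98 and -0.76, short of 2-fold. Sox11 was not called without MES replicate 1 or 2 (-0.96 and -0.99) or passage 15 replicate 2 (-0.82). Of 14 neural genes, Nefm, a neurofilament protein, was at least 3.0-fold lower, with no passage 15 array above background. That was 7.1% of the list, near the 6.9% of all genes.

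The class I genes H2-Bl and H2-T23, of the histocompatibility complex on chromosome 17, rose with the probes used. H2-Bl read 5.95, 5.13 and 5.65 in MES and 7.78, 8.21 and 8.32 at passage 15 (2.53, SE 0.25), and H2-T23 5.21, 4.93 and 5.08 and 6.79, 7.10 and 7.36 (2.01, SE 0.16). The groups did not overlap in either, which the rule that chose H2-Bl requires. The other probes of H2-T23 gave as little as 0.04, and the mean over all its probes was 0.71, short of 2-fold. Class I genes differ in sequence between mouse strains, and the part of the strains in these values was not tested. Of 24 measured class I and interferon response genes, a list without H2-Bl, H2-T23 was the gene called (4.2%, against 6.9% of all genes). The list median was 0.045. Of 21 chemokine and inflammation genes, Vcam1, an adhesion molecule, was at least 2.26-fold lower and none was higher (4.8% called). Vcam1 was not called with median scaling (-1.22).

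Cell cycle genes leaned higher in the spheres, mostly within 2-fold. Of 30 measured, 25 had a difference above 0, 9 passed the adjusted p upward and 1 downward, against 14.8% and 13.2% of all genes, and the median was 0.26. Ccne2, a cyclin of the start of S phase, was higher by 2.01 (SE 0.19) and Pcna, the replication clamp, by 1.32 (SE 0.38). Ccnd2, a D-type cyclin, was lower (-1.61, SE 0.38), and both its probes gave nearly the same value. Pcna was not called without MES replicate 1 (1.21) or passage 15 replicate 2 (1.31) or 3 (1.15). With MES replicate 1 and passage 15 replicate 3 both left out, Ccne2 was the gene of this list called. Of 10 DNA methylation genes and 23 chromatin modifiers none was called. The de novo methyltransferase genes Dnmt3b (-0.63, adjusted p = 0.00895) and Dnmt3l (-0.72, adjusted p = 0.0267) were lower within 2-fold, as was the histone methyltransferase gene Ehmt2 (-0.92), while the Polycomb gene Ezh2 was higher within 2-fold (0.78).

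Some of the largest rises were those of genes whose MES arrays lay far apart. Lypla1, an enzyme that removes palmitate from proteins, read 6.06, 8.29 and 7.40 in MES and 9.66, 9.78 and 9.66 at passage 15 (2.45, SE 0.42). MES replicate 1 was lowest, replicate 2 highest, and the spheres lay above all 3. Clk4, a kinase of splicing factors, read 5.36, 6.94 and 6.42 and 8.25, 8.49 and 8.59 (2.20, or 0.92 with its other probe), and Matr3, a nuclear matrix protein that binds RNA, 5.10, 7.18 and 6.49 and 8.40, 8.19 and 8.28 (2.03). Named after their values were seen, the RNA helicase gene Ddx5 read 4.88, 7.86 and 6.93 in MES and 8.49, 8.52 and 8.54 at passage 15 (1.96), the splicing regulator Hnrnph1 9.64, 10.58 and 10.43 and 11.94, 12.04 and 11.93 (1.75), and Tra2b, another splicing regulator, 8.89, 10.57 and 9.90 and 11.19, 11.33 and 11.25 (1.47). Each was called, and the last 3 were chosen for this spread. Of the 314 genes called higher, 68 had MES arrays at least 2-fold apart (21.7%, against 3.1% of all genes). MES replicate 1 was lowest in 64 of the 68, and in 147 of the 285 such genes among all tested. A low array lowers the mean of its group, so the shares here and below partly follow from the calls. Of the 331 genes called lower, 31 had passage 15 arrays at least 2-fold apart (9.4%, against 3.5% of all genes). Passage 15 replicate 3 was lowest in 25 of the 31, and in 207 of the 326 such genes among all tested. Without MES replicate 1, 530 genes were called, 484 of them also called with all arrays. The cause of this spread was not tested.

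Eif2s3y, a gene of the Y chromosome, was above background on all 6 arrays, at 9.89, 9.49 and 9.41 in MES and 9.49, 9.65 and 9.82 at passage 15 (difference 0.06, adjusted p = 0.839). Xist, the RNA of the inactive X chromosome, read 6.18, 5.91 and 6.18 in MES and 5.51, 5.63 and 5.54 at passage 15. Its groups did not overlap, and the difference of -0.53 did not pass the adjusted p (0.203). Of 13 housekeeping genes none was called, and their median was 0.17. The largest shifts among them were those of the transferrin receptor gene Tfrc at 0.94 and Ywhaz at -0.86, which both passed the adjusted p.

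The called genes were also read in the other groups of the series, passage 5 spheres and arrays labelled MEF, which lay on chips 2 and 3. Arrays labelled MEF held pluripotency transcripts (Pou5f1 mean 11.55, Esrrb 12.80), so they are not taken as pure fibroblasts. Of the 314 genes called higher, the passage 15 mean was the highest of the 4 groups in 247 and the MES mean the lowest in 126. Of the 331 called lower, the passage 15 mean was the lowest in 272, the MES mean the highest in 177 and the mean of arrays labelled MEF the highest in 120. The passage 5 mean lay above MES in 219 of the 314 and below MES in 253 of the 331. These counts describe genes chosen for their difference between 2 of the groups and carry no test. MES also differs from passage 15 in strain, so counts and levels particular to MES cannot be told apart from strain. Passage 5 arrays and arrays labelled MEF lay on other chips, so their distance from passage 15 cannot be told apart from chip.

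Single genes showed these patterns. Lefty1 averaged 7.58 in MES, 10.17 at passage 5 and 9.82 in arrays labelled MEF, against 11.98 at passage 15. Aurkc averaged 5.66 in arrays labelled MEF, 7.11 in MES, 8.19 at passage 5 and 10.04 at passage 15. Etv4 was higher in MES, at 12.13, than in the other 3 groups, which averaged 10.23 to 10.57. Cdx1 was near background outside MES, with means of 4.85, 4.98 and 5.11. Mt1, in contrast, was lowest at passage 15, with 12.26 at passage 5 and 12.92 in arrays labelled MEF. Anxa2 and Igf2 were highest in arrays labelled MEF, at 13.39 and 14.17, and lowest at passage 15. Fabp3 was highest at passage 5, at 13.71. Pigt averaged 13.48 at passage 5 and 13.66 in arrays labelled MEF, so passage 15 and MES both lay far below with that probe. These levels followed the chip, which cannot be told apart from the groups here.

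**Figure D5:**
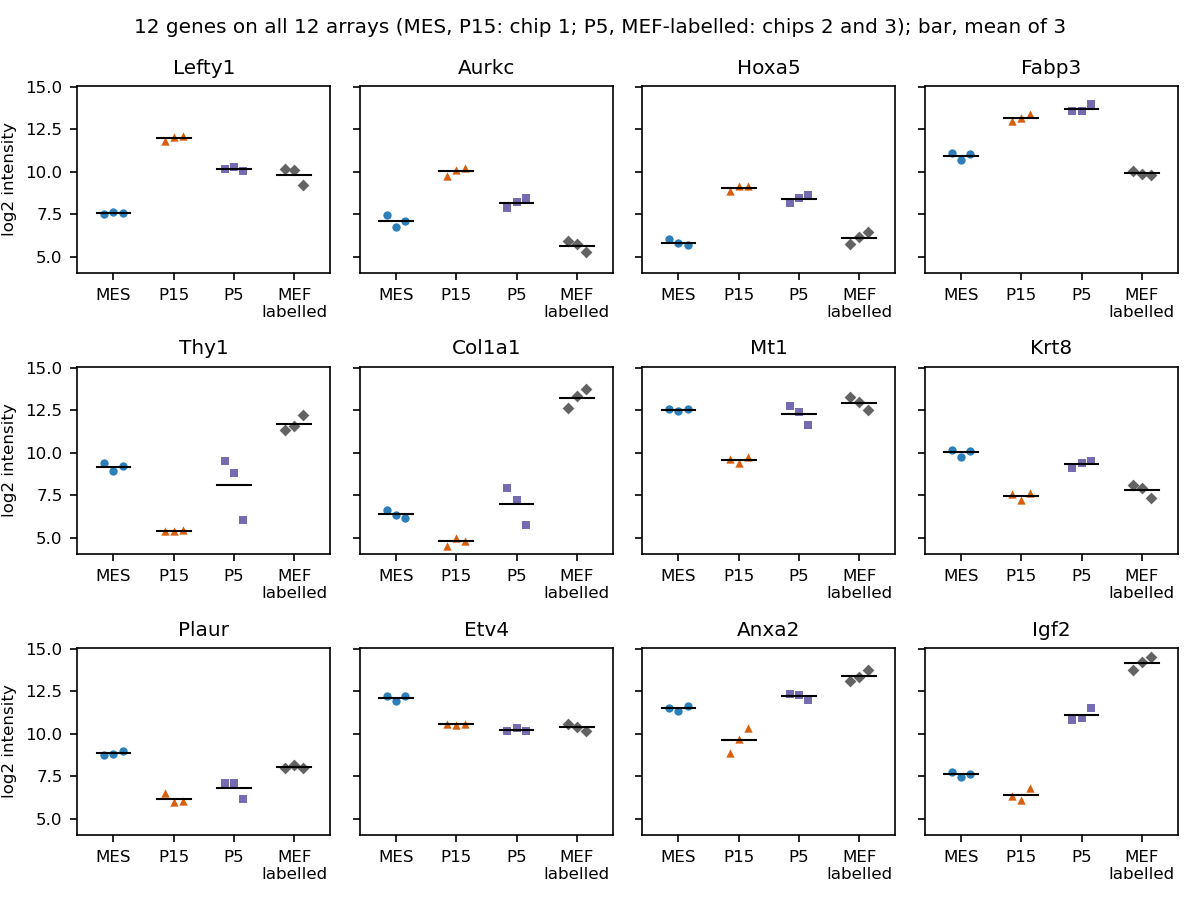
Log2 intensity of 12 genes on all 12 arrays, by group (MES and passage 15 on chip 1, passage 5 and arrays labelled MEF on chips 2 and 3), with the mean of 3 arrays as a bar. Mt1, Thy1, Col1a1, Anxa2 and Igf2 are lowest at passage 15, Lefty1, Aurkc and Hoxa5 are highest there, and Etv4 is highest in MES.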

How the data were processed

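The authors deposited a table of linear bead intensities without normalization between arrays. Its values below 0 show a subtracted background. The same table gives each probe a detection p-value, per the file headers. A second table deposited by the authors holds normalized log2 values, and the series matrix holds the same values (largest difference 0). The tools and settings behind these tables were not given in the sources used here. Per the labels' protocols, RNA was extracted with Trizol, treated with DNase I and turned into biotinylated cRNA.

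Of 46657 probes, 20 were left out because a value of passage 15 replicate 3 had become a date. The other 46637 were corrected and normalized over all 12 arrays with the neqc function (offset 16, quantile normalization; limma 3.58.1, R 4.3.3). Probes with a detection p under 0.05 on all 3 arrays of at least 1 of the 4 groups were kept (19444). The platform annotation, updated through Entrez IDs, names 1 gene for 12156 of these and none for 7288. The brightest kept probe stood for a gene, and 2274 genes had more than 1. A linear model with a mean per group was fitted to 12 arrays (lmFit, contrasts.fit and eBayes, 8 residual and 4.98 prior degrees of freedom), and adjusted p-values cover all 9343 genes. The number of arrays limits the precision. "At least N-fold" is given where the probe was above background on no array of the dimmer group, with that group held at the background level of its arrays or at its own signal where higher. The procedure was tested on simulated data.

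The comparison, the 45 gene lists and the tests were chosen with earlier results of these data known. Genes are named by a rule: fixed pluripotency, fibroblast and sex-linked genes, the 25 largest rises and falls among called genes without overlap, and up to 6 called members of each list, or the 2 with the largest difference where none was called. Genes outside it are marked in the text. Alternatives changed the arrays in the fit, background correction, normalization, detection filter, probe rule, variance prior and replicate block, and left out arrays, and the choice to leave out MES replicate 1 together with passage 15 replicate 3 was made after seeing the data.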

Additional observations from a re-analysis of the deposited data

Results flagged for a closer look

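Probes without a gene name lie outside the comparisons above. Of 7288 such probes that passed the detection filter, 470 were called by limma (6.45%), 192 higher and 278 lower at passage 15. Of 12156 kept probes with a gene, 942 were called (7.75%), 555 higher and 387 lower. Groups of 3 arrays are too small for the test of single outlying samples.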

How the results depend on the processing

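The count of 645 calls fell most under 2 of the alternatives: 270 genes were called after normexp with an offset of 50 and 315 with the authors' normalized log2 table, of which 268 and 313 were among the 645. The other alternatives gave 494 to 651 calls, fewest with MES replicate 1 and passage 15 replicate 3 both left out, and leaving out 1 array at a time gave 530 to 743. At the adjusted p alone, median scaling left 1596 genes and leaving out MES replicate 1 with passage 15 replicate 3 left 1523, against 2611, and leaving out 1 array gave 1847 to 2462. In every alternative run, all genes called there and with the main settings kept their direction. Of 131 named genes that were called, 79 kept their call throughout. Of these 131, out of 153 named genes, 41 lost their call with the offset of 50, 35 with the authors' table, 20 without MES replicate 1 and 9 with the mean over probes. Cd44 turned to 0.071 with the mean over probes (-0.013 to 0.013 with 1 array left out), and Eif2s3y to -0.002 with median scaling (-0.038 to 0.204 with 1 array left out), and neither was called in any. The cause was not tested. Of 765 list medians under the alternatives, 33 moved by more than the spread between replicates. The metallothionein median was -0.98 with the offset of 50, -1.11 with the authors' table, -1.32 with median scaling and -1.34 with chip 1 arrays alone, and the streak median -0.34 and -0.37 under the first 2 of these. Same-numbered arrays of the groups did not deviate together (correlations -0.09, 0.07 and 0.07), against -0.17 to 0.16 for arrays of different number. With 3 arrays a group, these values cannot exclude a pairing. A replicate block gave 648 calls, or 2526 at the adjusted p alone.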

Other observations

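Several smaller gene groups held 1 to 4 called genes each. Among 28 genes of the ATF4 and unfolded protein response, Herpud1, a protein of endoplasmic reticulum quality control, was higher by 1.36 (SE 0.19) and the transcription factor gene Atf4 by 1.09. Asns, asparagine synthetase (-1.02), and the stress protein Nupr1 (-1.33) were lower in the same list, and the other probe of Asns gave 0.27. Atf4 missed 2-fold with chip 1 arrays alone (0.90) and was not called with median scaling (0.89). Without MES replicate 1, Asns (-0.98), Atf4 (0.83) and Nupr1 (-1.25) were not called, and without passage 15 replicate 2 neither Asns (-0.94) nor Nupr1 (-1.11) was. Among 19 p53 targets, Trp53inp1 was higher by 1.16 (SE 0.22), while Tigar and Cdkn1c were lower. Among 17 immediate early genes, Egr1 (-1.51), Egr3 (at least 2.04-fold) and Fosl2 (at least 1.5-fold) were lower and none was higher, with 2 of 17 differences above 0 and a list median of -0.26. No passage 15 array was above background for Egr3 or Fosl2. The other probe of Egr3 gave -0.01, and the mean over its probes was short of 2-fold (-0.81). Fosl2 was at -0.83 with chip 1 arrays alone and with median scaling, short of 2-fold, and was not called without MES replicate 2 or 3 (-1.10 and -0.95) or passage 15 replicate 2 or 3 (-1.07 and -1.06). Egr4, of the same family as Egr1, was the gene that rose by 2.58.

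Among 12 chaperone genes the small heat shock proteins Cryab and Hspb8 were lower. Cryab, the crystallin that also marks muscle, read 10.83, 11.02 and 11.05 in MES and 8.77, 8.72 and 8.81 at passage 15 (-2.20, SE 0.14, adjusted p = 1.27e-06), and Hspb8 differed by -1.18. Of 17 muscle genes, Myl4, Cryab and Tnnt1, a slow troponin (-1.09), were lower and Ckb was higher. Tnnt1 missed 2-fold without MES replicate 1 (-0.96). Of 25 lysosome and autophagy genes 8.0% were called, near the 6.9% of all genes. Ctsa, a lysosomal protease, was higher by 1.78 and Gabarapl1, an autophagy protein, was lower (-1.49). Of 9 endothelial genes, Vwf, the blood clotting factor, was higher by 1.88 (SE 0.21) and Esam lower (-2.26), so markers of that cell type moved in opposite directions. Of 10 retinoic acid and lipid-binding genes, Stra8 and Fabp3 were higher and none was lower.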
